A study of Sus scrofa with 6 samples.

Results

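The nuclear genes for respiratory complexes II to V were examined in longissimus dorsi, a muscle of the back, from adipocyte-specific UCP1 KI pigs and WT pigs. Members were chosen by symbol alone, as the pig genes named *SDHA* to *SDHD*, *CYC1*, or beginning with *UQCR*, *COX* followed by 4 to 8, or *ATP5*. Of the 30476 genes counted, 35 had such a symbol, and 34 of these reached 10 or more counts in at least 3 pigs: 4 of complex II, 7 of complex III, 12 of complex IV and 11 of complex V. All 34 also passed the filter on low counts and were tested among 13402 genes. Some subunits, among them *ATP5F1B*, *ATP5MC2*, *COX6B1*, *COX6C*, *UQCRB* and *UQCRH*, were not analysed here.

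Each group held 3 pigs aged 6 months, with 1 mRNA library per pig. UCP1 KI pigs carry a knock-in of *UCP1*, the uncoupling protein of brown fat, directed at adipocytes, and WT pigs carry none. Sex, litter and the promoter are not given in the sources used here, and the level of *UCP1* itself was not analysed here. The total counts per pig lay between 30220951 and 35066624, and levels are given as counts per 1000000 scaled with edgeR's TMM factors (CPM). The samples expressed muscle genes strongly, with *ACTA1*, skeletal muscle actin, between 30309 and 55971 CPM. Since transcript lengths were not used, CPM values compare pigs and do not rank one gene above another.

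Complex II, succinate dehydrogenase, passes electrons from succinate to coenzyme Q. Complex III hands them on to cytochrome c, and complex IV, cytochrome c oxidase, passes them to oxygen. Proton pumping by complexes III and IV drives complex V, the ATP synthase. Complex II is built from nuclear genes alone, whereas III, IV and V also hold mitochondrially encoded proteins. In heart and skeletal muscle, complex IV exchanges a few ubiquitous subunits for tissue isoforms, of which COX6A2 and COX7A1 are the best known.

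With TMM scaling, one library stood apart within these genes. UCP1 KI replicate 2 had the lowest CPM of the 6 pigs for 27 of the 34 members and the highest for 0. WT replicate 2 was lowest for 5, and UCP1 KI replicates 1 and 3 for 1 each. The summed CPM of the members was 10657, 5744 and 8557 in UCP1 KI replicates 1 to 3, and 10394, 9571 and 10447 in WT replicates 1 to 3. Thus UCP1 KI replicate 1 lay above all WT pigs and UCP1 KI replicates 2 and 3 below them. Without scaling, the members took 1.009%, 0.678% and 1.001% of all counts in UCP1 KI replicates 1 to 3 and 1.107%, 0.747% and 0.958% in WT replicates 1 to 3, so that WT replicate 2 was also low. In CPM, UCP1 KI pigs averaged 8319 ± 2465 CPM (SD, n = 3) and WT pigs 10137 ± 491 CPM (SD, n = 3).

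**Figure D1:**
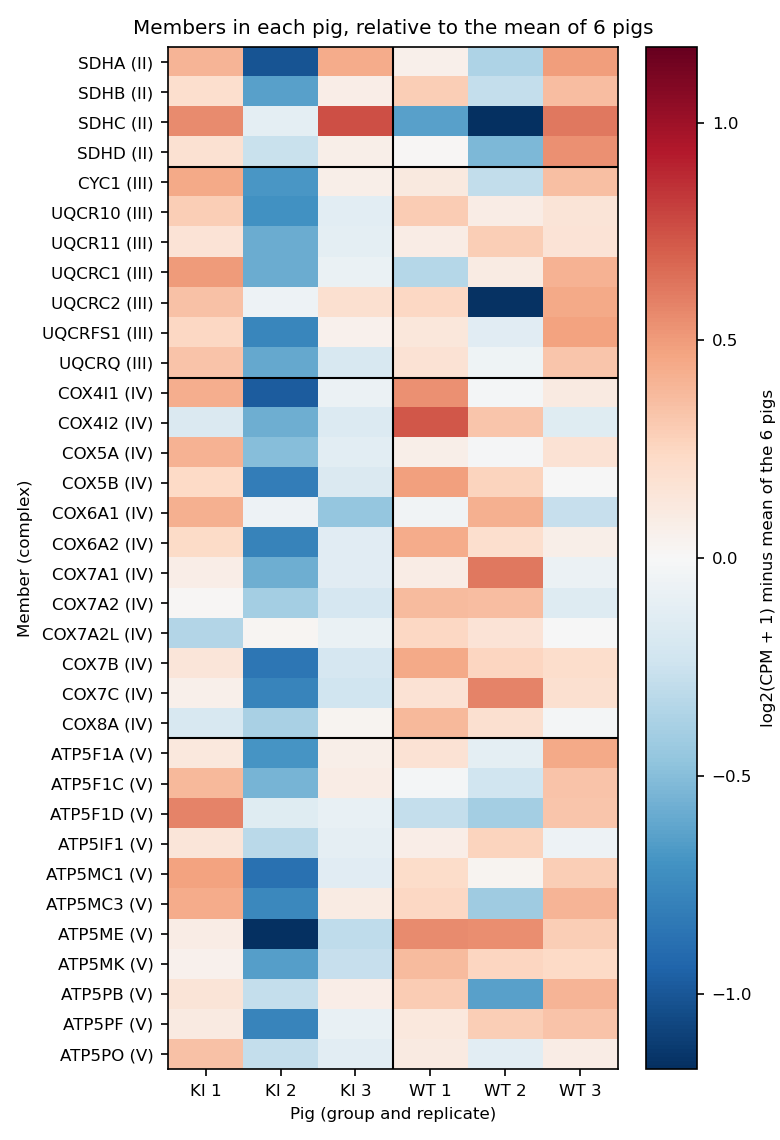
Each row is a member, with its complex in parentheses, and each column a pig. The colour gives log2(CPM + 1) minus the mean of that member over the 6 pigs. The column of UCP1 KI replicate 2 is blue for nearly all members, being the lowest of the 6 pigs for 27 of 34.

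In the same library the 8 fast fibre markers found (*TNNT3*, *TNNC2*, *TNNI2*, *MYL1*, *ATP2A1*, *ACTN3*, *CASQ1* and *PVALB*, of 12 listed) summed to 16838 CPM, against 35308 to 88245 CPM in the other 5 pigs. Its 6 slow fibre markers found, of 10 listed, summed to 10803 CPM, inside the range of 4338 to 17911 CPM over all pigs. Leukocyte markers were highest in it, at 61.3 CPM for 7 genes against 20.5 to 39.3 CPM elsewhere, with *LYZ* at 0 in all pigs, and red blood cell markers were lowest, at 11.4 CPM for 3 genes against 73.2 to 180.2 CPM. The summed red blood cell markers, nearly all of them *HBB*, were also lower in all UCP1 KI pigs (up to 76.0 CPM) than in all WT pigs (from 104.6 CPM), while *ALAS2*, taken by itself, overlapped. The summed fibroblast markers (6 genes) were lower in all UCP1 KI pigs (235.4 to 434.7 CPM) than in all WT pigs (741.8 to 1187 CPM), as were 4 of the 6 one by one (*COL1A1*, *COL1A2*, *COL3A1* and *LUM*), while *DCN* and *PDGFRA* overlapped. Summed over their lists, the adipocyte (6 genes), endothelial (5), smooth muscle (3) and Schwann cell (3) markers overlapped between the groups, as did the fast fibre markers. Like the members, most of these fast fibre, adipocyte and smooth muscle genes had negative log2 fold changes (UCP1 KI against WT), at 7 of 8, 4 of 4 tested and 3 of 3 genes with medians of -0.58, -1.18 and -1.08, and 0 of them had an unadjusted p under 0.05 in the test of edgeR. The part of fibre type and of other cells in the values that follow was not tested, and in bulk muscle fewer fibres of a type and less RNA per fibre cannot be told apart.

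**Figure D2:**
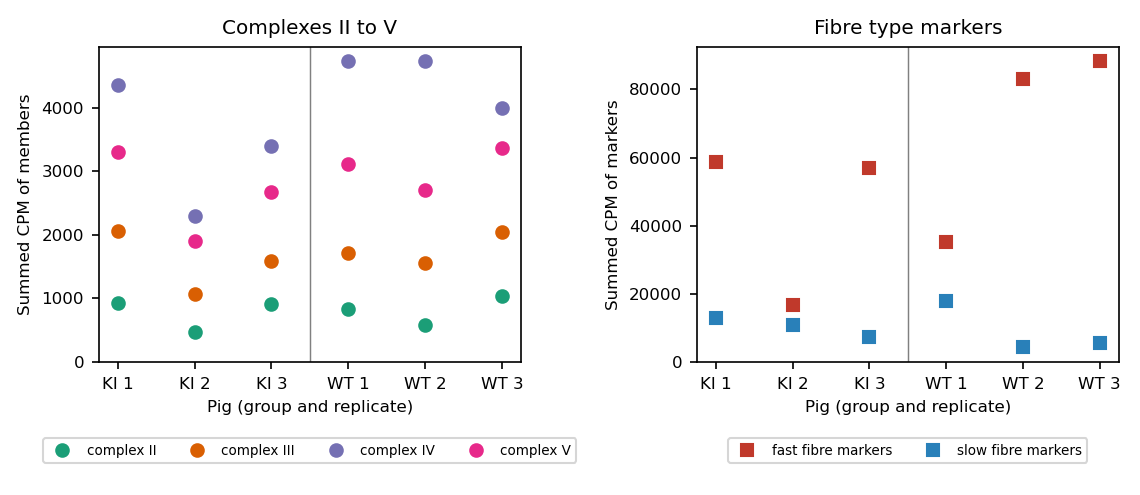
The left panel shows the summed CPM of the members of each complex in each pig, and the right panel the summed CPM of the fast and slow fibre markers. UCP1 KI replicate 2 is the lowest pig for all 4 complexes and for the fast fibre markers, at 16838 CPM, but not for the slow fibre markers.

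The comparison of the genotypes asks whether UCP1 in fat goes with another level of the respiratory chain in muscle. In edgeR's fit to all genes, 31 of the 34 members had a negative log2 fold change (UCP1 KI against WT) and 3 a positive one, with a median of -0.27 and a range from -0.84 to 0.67. Over all genes tested, 51.3% of log2 fold changes were negative and the median was -0.02. These differences were small beside the spread of the pigs: their median size was 0.27, whereas the median SD within a group was 0.39 on the log2(CPM + 1) scale. The lowest and the highest pig differed by a median of 2.14-fold over the members and by up to 4.17-fold.

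Of the 34 members, 1 fell past both limits (a log2 fold change of more than 0.5 in size, with p under 0.05 before adjustment in the quasi-likelihood test of edgeR) and 0 rose. Among all genes tested, 8.19% passed these limits, 3.84% higher and 4.34% lower in UCP1 KI pigs. After Benjamini-Hochberg adjustment no member was under 0.05, and neither was any gene (0% of 13402, of which 1100 had an unadjusted p under 0.05), the smallest adjusted p of a member being 0.603. DESeq2 also gave 0 members at this adjusted limit, but 127 genes of the whole table, and 1 member at the unadjusted one. Every UCP1 KI pig was below every WT pig for 6 members, and above for 0, where 7.69% of all genes were below without overlap and 7.59% above.

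The direction rested in large part on one pig. Without UCP1 KI replicate 2, 21 members were lower and 13 higher, with a median of -0.05 against -0.04 for all genes, and 17 of the 34 lay below that median. Without WT replicate 3 the split was 23 to 11, and without any other pig 29 to 32 members were lower. The median of the members was furthest from 0 without UCP1 KI replicate 1, at -0.42. Scaling by library size alone gave 20 lower and 14 higher members. That scaling raised the median of all genes to 0.24, and 31 members lay below it, as with TMM factors. Taken one at a time, 20 members were lower in each of the 6 fits that left out a pig, 1 was higher in each, and 13 took both directions.

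**Figure D3:**
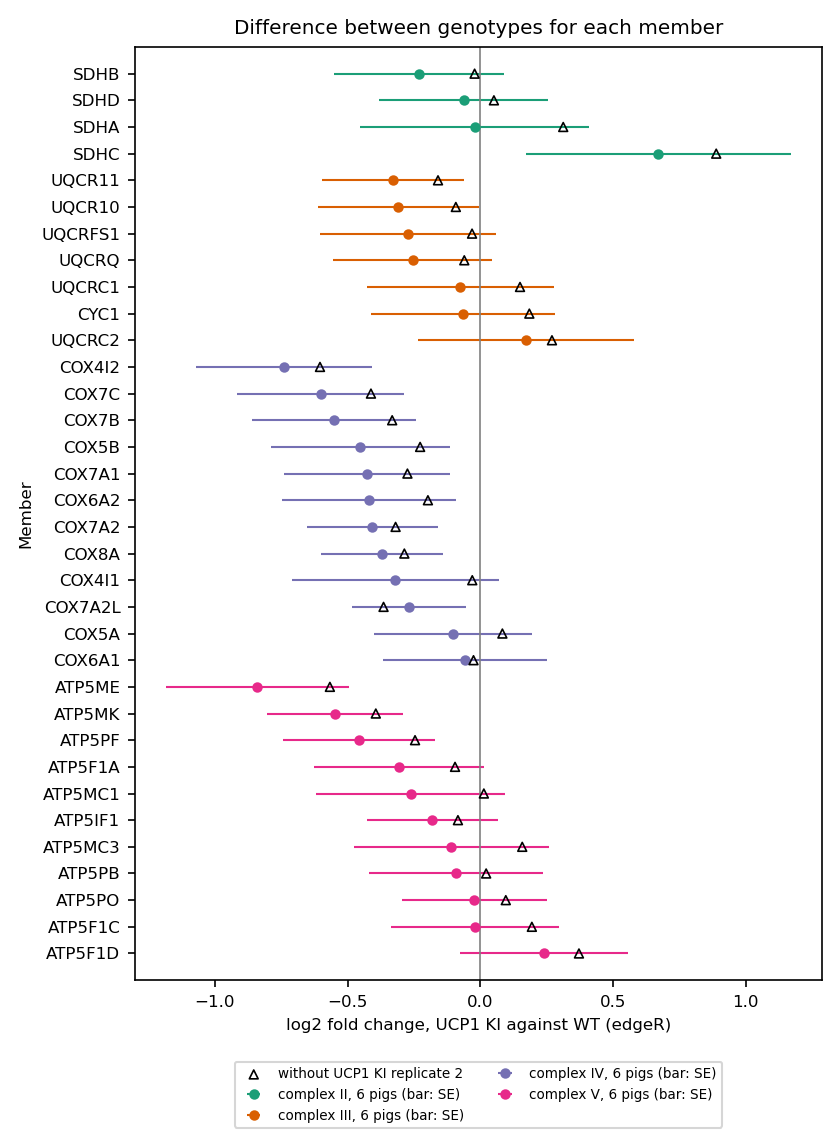
Filled points give the log2 fold change of each member (UCP1 KI against WT) with bars of 1 standard error, coloured by complex, and open triangles the value without UCP1 KI replicate 2. Without this pig the values move towards or past 0 for most members, while 11 of the 12 complex IV members stay below 0.

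The 4 genes of complex II had a median of -0.04, which became 0.18 when UCP1 KI replicate 2 was left out and 0.23 when WT replicate 3 was. Without WT replicate 2 the median was -0.25. With library size alone it was 0.17, below the 0.24 of all genes. *SDHC* (ENSSSCG00000030318, Sscrofa11.1 chromosome 4, 89135410 to 89169164), the large membrane anchor that helps to bind heme b and coenzyme Q, had the most positive log2 fold change of all members. It was at 28.0, 17.3 and 32.4 CPM in UCP1 KI replicates 1 to 3 and at 11.7, 7.78 and 29.3 CPM in WT replicates 1 to 3. WT replicate 3 lay within the UCP1 KI range, and the other WT pigs below it. At a log2 fold change of 0.67 with a standard error of 0.50, edgeR's p was 0.218 before adjustment and the adjusted p was 0.731. *SDHC* lay between 0.33 (without WT replicate 2) and 1.41 (without WT replicate 3) when a pig was left out, and passed both limits only in the latter of these fits. *SDHA*, the flavoprotein that oxidises succinate, was at 399.9, 149 and 411 CPM in UCP1 KI pigs and 315, 235 and 425 CPM in WT pigs, with a log2 fold change of -0.02 that was 0.31 without UCP1 KI replicate 2. *SDHB*, the iron-sulfur subunit, had -0.23 and *SDHD*, the small anchor, -0.06, and without that pig they were at -0.021 and 0.051.

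In complex III, 6 of 7 genes were lower and the median was -0.25. It was -0.03 without UCP1 KI replicate 2 and -0.47 without UCP1 KI replicate 1. *UQCR11*, a small subunit, had the smallest p of the complex. It was at 229.5, 137 and 190.1 CPM in UCP1 KI pigs and at 218, 252 and 229.4 CPM in WT pigs, so that UCP1 KI replicate 1 overlapped the WT range. The log2 fold change of *UQCR11* was -0.33 with a standard error of 0.27, and the adjusted p of edgeR was 0.758. It was -0.16 without UCP1 KI replicate 2 and down to -0.51 with another pig left out. The 3 other small or iron-sulfur subunits had close values, with -0.31 for *UQCR10*, -0.27 for *UQCRFS1*, the Rieske protein, and -0.25 for *UQCRQ*, which were -0.092, -0.031 and -0.060 without UCP1 KI replicate 2. *CYC1*, cytochrome c1, and *UQCRC1*, a core protein of the matrix side, were at -0.07 and -0.08 and changed sign without UCP1 KI replicate 2 (0.18 and 0.15). *UQCRC2*, the other core protein, had 0.17, with WT replicate 2 at 48.8 CPM and the 5 other pigs at 105 CPM or more, and was -0.18 without that pig. All 7 genes overlapped between the groups.

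In complex IV all 12 genes tested had a negative log2 fold change, with a median of -0.41, the lowest of the 4 complexes, and none passed both limits. The sign held in 11 or 12 of the 12 genes with any pig left out, where the median lay between -0.62 and -0.28. With library size alone 10 of 12 were negative, at a median of -0.17 against 0.24 for all genes. Complex IV members held 40.9%, 40.0% and 39.6% of the counts of all members in UCP1 KI replicates 1 to 3, a share that does not depend on scaling. In WT replicates 1 to 3 they held 45.6%, 49.4% and 38.2%. WT replicate 3 was thus below all UCP1 KI pigs, and the groups overlapped.

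In 3 complex IV genes no UCP1 KI pig reached a WT pig. *COX7C* (ENSSSCG00000040325, Sscrofa11.1 chromosome 2, 94345436 to 94347709), a small subunit without tissue isoforms, was at 728, 408 and 595 CPM in UCP1 KI pigs and 786, 1043 and 797 CPM in WT pigs. This gave a log2 fold change of -0.60 with a standard error of 0.32 (edgeR, adjusted p = 0.646). *COX7B*, another small subunit, was at 378, 190.3 and 299.9 CPM against 467, 410.1 and 396 CPM, which gave a log2 fold change of -0.55 with a standard error of 0.31 (edgeR, adjusted p = 0.662) that was -0.33 without UCP1 KI replicate 2. The gap was narrow in each: the highest UCP1 KI pig, replicate 1, was at 728 CPM for *COX7C* and 378 CPM for *COX7B*, and the lowest WT pigs at 786 and 396 CPM. The third gene was *COX4I2*, described with the isoforms.

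*COX6A2* (ENSSSCG00000036789) encodes the heart and muscle isoform of subunit 6A. It was at 718, 357 and 560.0 CPM in UCP1 KI pigs and at 833, 705 and 647 CPM in WT pigs, and UCP1 KI replicate 1 lay between the WT pigs. *COX6A1* (ENSSSCG00000039265, Sscrofa11.1 chromosome 14, 40408600 to 40410810), its ubiquitous counterpart, was at 89.1, 63.8 and 48.3 CPM in UCP1 KI pigs and 64.9, 89.4 and 55.0 CPM in WT pigs. The log2 fold change was -0.42 (standard error 0.33) for *COX6A2* and -0.06 (standard error 0.31) for *COX6A1*, and edgeR gave 0.746 and 0.970 as adjusted p. With a pig left out *COX6A2* lay between -0.66 and -0.20, the latter without UCP1 KI replicate 2. To compare the isoforms without any scaling, the log2 ratio of their counts was taken in each pig. It was 3.01, 2.48 and 3.54 in UCP1 KI replicates 1 to 3 and 3.68, 2.98 and 3.55 in WT replicates 1 to 3. The groups differed by -0.40 and overlapped (two-sided exact permutation test, p = 0.4, adjusted p = 0.667 over the 4 ratios). The difference lay between -0.66 (without UCP1 KI replicate 3) and -0.13 (without UCP1 KI replicate 2) when a pig was left out. The smallest p that 3 pigs against 3 allow is 0.1.

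*COX7A1* (ENSSSCG00000037792, Sscrofa11.1 chromosome 6, 45519225 to 45520721), the muscle isoform of subunit 7A, was at 555, 352 and 479.9 CPM in UCP1 KI pigs and 558, 808 and 500.0 CPM in WT pigs. *COX7A2* (ENSSSCG00000004480, Sscrofa11.1 chromosome 1, 90696746 to 90703407), the ubiquitous one, was at 52.2, 39.0 and 45.0 CPM against 67.0, 66.8 and 46.6 CPM. In both genes 1 UCP1 KI pig, replicate 1, lay within the WT range. The log2 fold changes were -0.43 (standard error 0.31) and -0.41 (standard error 0.25), and edgeR gave 0.728 and 0.685 as adjusted p. Without WT replicate 2 they were -0.19 for *COX7A1* and -0.33 for *COX7A2*. Their log2 ratio was 3.33 ± 0.137 (SD, n = 3) with the knock-in and 3.36 ± 0.275 (SD, n = 3) without it. The difference of -0.02 (exact permutation test, p = 0.8) was smaller than either SD and lay between -0.18 and 0.09 with a pig left out.

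*COX4I2* (ENSSSCG00000038384), the isoform of subunit 4 known from lung, had the lowest log2 fold change of complex IV. The 3 UCP1 KI pigs had 5.17, 3.65 and 5.19 CPM and the WT pigs 10.4, 7.67 and 5.27 CPM. No UCP1 KI pig reached a WT pig, although UCP1 KI replicate 3 and WT replicate 3 were close together. With -0.74 as log2 fold change and a standard error of 0.33, edgeR's p was 0.0572 and the adjusted p 0.611, and it lay between -0.48 (without WT replicate 1) and -0.95 (without WT replicate 3, the only such fit in which it passed both limits) when a pig was left out. *COX4I1* (ENSSSCG00000029034), the ubiquitous isoform, was at 601, 227 and 425 CPM against 646, 438 and 479.9 CPM, a log2 fold change of -0.32 (standard error 0.39, adjusted p = 0.838 from edgeR). That of *COX4I1* was -0.03 without UCP1 KI replicate 2. The log2 ratio of *COX4I2* to *COX4I1* was -6.39 ± 0.453 (SD, n = 3) with the knock-in and -6.09 ± 0.359 (SD, n = 3) without it, and the groups overlapped (exact permutation test, p = 0.5).

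**Figure D4:**
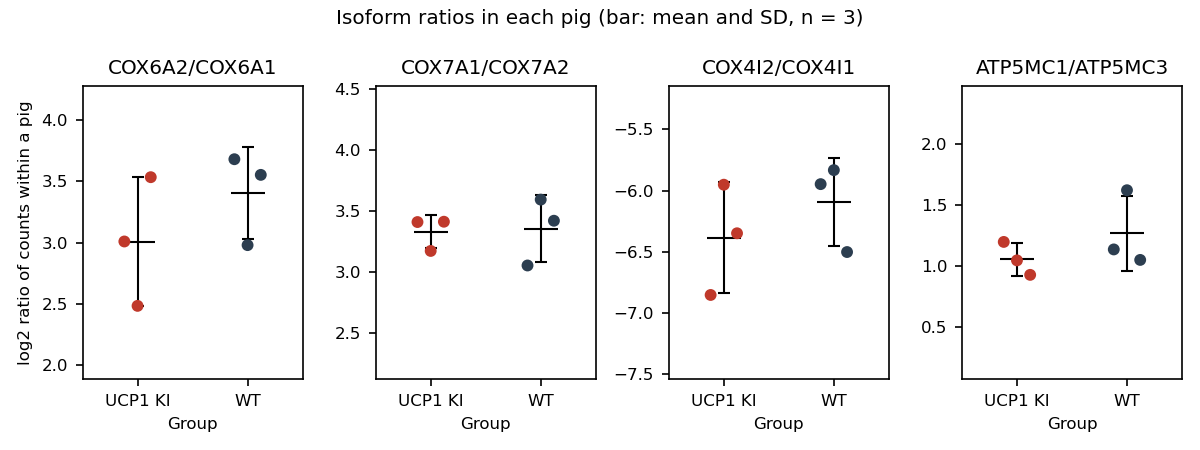
Points are the log2 ratios of the counts of paired genes within a pig, by group, and the bars the mean and SD of 3 pigs; the axes differ in position but span the same number of log2 units. The groups overlap in all 4 ratios, with exact permutation p values of 0.4 to 0.8.

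The remaining complex IV genes were *COX5A*, *COX5B*, *COX8A* and *COX7A2L*, which codes for a factor that joins complexes III and IV and is not itself a fixed subunit. Their log2 fold changes were -0.10, -0.45, -0.37 and -0.27, and all overlapped between the groups. *COX5A* was 0.083 without UCP1 KI replicate 2, *COX5B* -0.23 and *COX7A2L* -0.36, further from 0 than with it. For *COX7A2L* UCP1 KI replicate 2 was the highest of its group, at 30.5 CPM against 23.5 and 28.4 CPM in replicates 1 and 3. *COX6B2*, the testis isoform of subunit 6B, had 2, 0 and 6 counts in the UCP1 KI libraries and 2, 15 and 10 counts in the WT libraries. It did not pass the filter and was not tested. A count of 0 allows up to 3 counts, or 0.0795 to 0.1096 CPM depending on the pig, for counting error only.

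In complex V, 10 of 11 genes were lower, with a median of -0.18, and 1 passed both limits. This direction did not hold without UCP1 KI replicate 2, where 6 of the 11 were higher and the median was 0.014. Without UCP1 KI replicate 1 the median was -0.38, and without WT replicate 2 it was -0.33. With library size alone the median was 0.066, below the 0.24 of all genes under that scaling. The gene past both limits was *ATP5ME* (ENSSSCG00000023903), the e subunit of the membrane part, known for a role where ATP synthase dimers meet. It was at 168, 69.6 and 128 CPM in UCP1 KI pigs and 232, 230.3 and 193 CPM in WT pigs, so that the groups did not overlap and UCP1 KI replicate 2 was the lowest. The log2 fold change was -0.84 with a standard error of 0.34, and edgeR's p was 0.0415 before adjustment and 0.603 as an adjusted p. It was -0.57 without UCP1 KI replicate 2, and past both limits in 1 of the 6 fits that left out a pig, the one without UCP1 KI replicate 1 (-1.14). With library size alone it was -0.63 and did not pass them.

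Another 2 complex V genes had no overlap. *ATP5MK*, the k subunit, which sits beside the e subunit in the membrane, was at 163, 100.5 and 131 CPM in UCP1 KI pigs and 203, 188 and 185 CPM in WT pigs. Its value on the log2 scale was -0.55 with a standard error of 0.26 (edgeR, adjusted p = 0.622). *ATP5MK* passed both limits in 1 of the 6 fits that left out a pig, the one without UCP1 KI replicate 1 (-0.73), and was at -0.39 without UCP1 KI replicate 2. *ATP5PF*, coupling factor F6 of the peripheral stalk, was at 185, 100.1 and 162 CPM against 187, 209.7 and 217 CPM, or -0.46 on the log2 scale with a standard error of 0.29 (edgeR, adjusted p = 0.694). The other stalk genes, *ATP5PB* and *ATP5PO*, were at -0.09 and -0.02. Without UCP1 KI replicate 2, *ATP5PF* was at -0.25, *ATP5PB* at 0.022 and *ATP5PO* at 0.096.

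Of the genes for the F1 part, in which ATP is made, *ATP5F1A* (alpha) was at -0.31, *ATP5F1C* (gamma) at -0.02 and *ATP5F1D* (delta) at 0.24. With a pig left out, *ATP5F1A* lay between -0.44 and -0.095, *ATP5F1C* between -0.24 and 0.19, and *ATP5F1D* between -0.031 and 0.50. *ATP5F1A* and *ATP5F1C* were highest without UCP1 KI replicate 2, and *ATP5F1D* was lowest without UCP1 KI replicate 1. *ATP5F1D* was at 182, 109 and 114 CPM in UCP1 KI pigs and 99.7, 91.7 and 152 CPM in WT pigs, with the groups interleaved. *ATP5IF1*, the inhibitor of ATP hydrolysis by the F1 part, lay between 209 and 313 CPM, the smallest ratio of highest to lowest pig among the members. Its log2 fold change was -0.18, or -0.084 without UCP1 KI replicate 2. The c subunit, of which copies form the rotating ring, has several genes for an identical mature protein. *ATP5MC1* was at 329.8, 129 and 216 CPM against 276, 243 and 291 CPM (log2 fold change -0.26, standard error 0.36), and *ATP5MC3* at 144, 62.5 and 114 CPM against 125, 79.0 and 140.5 CPM (-0.11, standard error 0.37). Their adjusted p values from edgeR were 0.859 and 0.944, and without UCP1 KI replicate 2 their log2 fold changes were 0.014 and 0.16. Both genes overlapped between the groups, and so did their log2 ratio, which was 1.06 ± 0.135 (SD, n = 3) with the knock-in and 1.27 ± 0.308 (SD, n = 3) without it (exact permutation test, p = 0.4). WT replicate 2, at 1.62, had the highest ratio.

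The members were also grouped by what their proteins do, a grouping made after the values were seen and therefore not tested. The 7 genes for subunits with redox centres or of the F1 part (*SDHA*, *SDHB*, *CYC1*, *UQCRFS1*, *ATP5F1A*, *ATP5F1C* and *ATP5F1D*) had a median log2 fold change of -0.07. The 18 genes tested for supernumerary subunits, those around the catalytic core, had -0.39, and 17 of them were lower. These 18 were the complex IV genes tested other than *COX7A2L*, with *UQCR10*, *UQCR11*, *UQCRQ*, *UQCRC1*, *UQCRC2*, *ATP5ME* and *ATP5MK*. *UQCRC1* and *UQCRC2*, called core proteins above, were thus counted as supernumerary. The group of 7 held no complex IV gene, so this contrast overlaps with that between the complexes. Without UCP1 KI replicate 2 the medians were 0.18 and -0.21 for the redox or F1 genes and the supernumerary genes. In that fit 15 of the 18 supernumerary genes were still lower, against 3 of the 7 redox or F1 genes. Of the 6 genes without overlap, 5 (*COX4I2*, *COX7B*, *COX7C*, *ATP5ME* and *ATP5MK*) belonged to the supernumerary group. The mean log2(CPM + 1) of the supernumerary genes minus that of the redox or F1 genes, which hardly depends on scaling, was -0.72, -0.55 and -0.83 in UCP1 KI replicates 1 to 3. It was -0.36, -0.13 and -0.85 in WT replicates 1 to 3. WT replicates 1 and 2 were thus above all UCP1 KI pigs, and WT replicate 3 was below them.

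Other genes of the pathway were summarised from lists. Of 29 nuclear genes listed with complex I by their *NDUF* symbols, 26 were lower, with a median of -0.32. The list includes *NDUFA4*, whose protein is now assigned to complex IV. Past both limits, 3 of the 29 fell, *NDUFA5* (-1.18), *NDUFB1* (-1.03) and *NDUFA2* (-0.56), or 10.3% where 4.34% of all genes tested did. Without UCP1 KI replicate 2, 19 of the 29 were lower, at a median of -0.11. Of the 13 mitochondrially encoded protein genes, 11 were lower, with a median of -0.58, and 1, *ND4L* (-1.12), passed both limits, though not without WT replicate 2. These genes took 40.7% of all counts in WT replicate 2 and 22.3% to 31.2% in the other pigs, and their median was -0.14 without that pig. For each count of a nuclear complex IV gene, *COX1*, *COX2* and *COX3*, the core of the same complex, had 42.8, 64.4 and 35.5 counts in UCP1 KI replicates 1 to 3 and 39.9, 68.4 and 38.7 in WT replicates 1 to 3. Replicate 2 of either genotype was the highest of its group.

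Assembly factors, which insert cofactors and help to build complexes II to V, were split in direction. Of 32 found, 19 were higher and 13 lower, with a median of 0.06. Past both limits, 2 rose, or 6.25% where 3.84% of all genes tested did. These were *SCO1*, a copper chaperone of complex IV (2.69, with UCP1 KI replicate 2 at 13.8 CPM and the other pigs between 0.744 and 1.17 CPM), and *SDHAF2*, which helps to attach the flavin to SDHA (0.58). *SDHAF2* was at 39.3, 46.6 and 40.3 CPM in UCP1 KI pigs and 27.1, 23.2 and 34.0 CPM in WT pigs, without overlap. The 14 genes for electron carriers and coenzyme Q synthesis were split 7 to 7, with a median of 0.04 and 0 past both limits. The 14 regulators of mitochondrial gene expression, such as *PPARGC1A*, *NRF1* and *ESRRA*, had a median of 0.10, from -0.38 to 0.62, and 0 passed both limits.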

How the data were processed

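RNA-seq of longissimus dorsi was analysed for 3 UCP1 KI and 3 WT pigs. The table deposited by the authors holds raw counts for Ensembl genes, in 1 column per pig. Per the labels' processing notes they used FastQC 0.11.2, Trimmomatic 0.36, HISAT2 2.0, StringTie 1.3.3b and the build Sscrofa11.1. StringTie is named for computing expression values. The annotation release and strand setting are not given in the sources used here, and reads shared with pseudogenes or isoforms may be split. Symbols came from a table of Ensembl names, positions of members with the same RefSeq symbol from Sscrofa11.1.

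Genes were kept by filterByExpr, scaled by TMM and tested two-sided in edgeR 4.0.16 (R 4.3.3, quasi-likelihood F test, all genes, genotype the only term), with Benjamini-Hochberg adjustment. The standard error is the log2 fold change over the square root of F. Ratios used counts plus 0.5. Whether the pigs are litter mates is not stated. The p values set the difference between the groups against the spread between pigs, and take the pigs as independent. The script was tested on simulated counts.

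Members, lists and tests were chosen with earlier results of these data known. Full statistics were given for paired isoforms, for members past both limits and for the smallest p of each complex. Of other lists, at most 3 genes past both limits were named. The members without overlap, and others described beyond this rule, were chosen after their values were seen. Alternatives were median-of-ratios factors, library size alone, 3 other filters, DESeq2 1.42.0, leaving out each pig, a block for the replicate number, no fold limit, and a ratio prior of 1 count. The grouping by function, and the lists under each alternative, were added after the values were seen. Promoter motifs were not analysed here.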

Additional observations from a re-analysis of the deposited data

How the results depend on the processing

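The number of members past both limits, 1 in the reported fit, was 1 with median-of-ratios factors, the 3 other filters, DESeq2 and no fold change limit, 0 with library size alone or an adjusted p under 0.05, and 0 to 2 with a pig left out. The numbers higher and lower in those fits were 0 to 1 and 0 to 2, and the lower one was 0 with library size alone. The replicate number as a block gave 2, of which 1 was higher, *SDHC* at 0.85. Correlations of same-numbered pigs' deviations from their group means were 0.0038, 0.094 and 0.283. Those of differently numbered pigs across the genotypes lay between -0.20 and 0.13. As the former were not all above 0.1, the numbers were not taken to pair the pigs. That limit is a choice, and whether same-numbered pigs share a factor was not tested. The block turned the sign of none of the 11 members described in full and changed no other call among them. Log2 fold changes near 0 changed sign, *COX6A1* (0.19) and *ATP5MC3* (0.081) with library size alone, where the median of all genes was 0.24. With a pig left out, *COX6A1* lay between -0.31 and 0.16, *ATP5MC3* between -0.38 and 0.16, and *ATP5MC1* between -0.64 and 0.014. The difference in the log2 ratio of *COX7A1* to *COX7A2* changed sign without UCP1 KI replicate 2 (0.055), WT replicate 2 (0.095) and WT replicate 3 (0.0080), and lay between -0.18 and 0.095 over the fits with a pig left out. The other ratios kept their sign in all 8 alternatives, with ranges over the fits with a pig left out of -0.66 to -0.13 for *COX6A2* to *COX6A1*, -0.51 to -0.056 for *COX4I2* to *COX4I1* and -0.32 to -0.036 for *ATP5MC1* to *ATP5MC3*. The cause of these changes was not tested. Subunits alone, without *COX7A2L* and *ATP5IF1*, moved the median of the members by less than the SD between pigs.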
